A study of Mus musculus with 2 samples.

Results

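The receptors described here sense small mediators such as nucleotides, adenosine, prostaglandins, lysolipids, formyl peptides and protons. They were chosen by a rule on gene symbols, which was set with earlier results of these data known. Of the 10403 genes with FPKM 42 matched, of which 41 are described. FPKM counts the fragments of a gene per length of transcript and per number of mapped fragments, so that levels of different genes can be compared. Of the 41, 39 carried symbols of G protein-coupled receptors and 2, P2rx4 and P2rx7, encode ATP-gated ion channels, which are kept apart. Of the 39, 31 are known as receptors of the cell surface. The other 8 match by symbol, but their products are known from the Golgi, from lysosomes or as other membrane proteins. The GENCODE annotation holds 153 protein-coding genes whose symbols match, and the 111 without FPKM were not analysed here.

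The study compared peritoneal macrophages of mice with a genotype labelled ECM1-sufficient and mice labelled ECM1-deficient. ECM1 is extracellular matrix protein 1, a secreted glycoprotein. Both groups had been elicited for 3 days with an agent named ThG in the labels and were not activated further, and each was 1 RNA sequencing library. The sample titles mark the ECM1-sufficient library as WT and the ECM1-deficient library as KO. Strain, sex, age, the design of the Ecm1 allele and the number of animals behind a library are not given in the sources used here.

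A G protein-coupled receptor binds its ligand outside the cell and activates a heterotrimeric G protein inside. Gs raises cyclic AMP, which restrains many inflammatory functions of macrophages, Gi lowers it, Gq releases calcium through phospholipase C, and the G12 and G13 proteins act on the cytoskeleton. Macrophages use these receptors to find dying cells and bacteria, to move, and to adjust cytokine output to prostaglandins and adenosine.

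With 1 library per genotype no test was possible, and each value comes from a single library without a replicate check. The difference of a gene is its log2(FPKM + 1) with ECM1 deficient, less the same value with ECM1 sufficient. A gene was called higher or lower at a difference of 1 or more in size, which is 2-fold in FPKM + 1, and a statement that genes were within 2-fold refers to FPKM + 1. Folds of single genes are plain ratios of FPKM. Where a pair of FPKM follows a gene's name, the ECM1-sufficient value comes first. Of the 10402 symbols, 9032 reached 1 FPKM in at least one library and were compared, with a median difference of 0.61. Over the 7329 genes that reached 1 FPKM in each library, the median ratio was 1.73, a shift of 0.79 on the log2 scale. For this reason the difference relative to the median gene, after that ratio was divided out, is given beside the first. Depth is unknown, since FPKM show no read numbers. Ecm1 itself was at 5.63 FPKM with ECM1 sufficient and at 1.02 FPKM with ECM1 deficient. All 8 macrophage markers examined had FPKM in the table, and their sum was 514 FPKM in the former group and 935 FPKM in the latter.

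Cd68 alone made up 401 and 689 FPKM of these sums. Each list of markers of other cells summed to less, but some of their genes were not low. In the ECM1-sufficient library Pf4, Fn1 at 25.3 FPKM, Dcn at 12.8 FPKM and Col1a1 were above the macrophage genes Csf1r at 7.70 FPKM and Spi1 at 6.73 FPKM. The order was different in the ECM1-deficient library, with Csf1r at 18.9 FPKM and Spi1 at 28.8 FPKM. There Fn1 was at 33.9 FPKM, Dcn at 28.1 FPKM and Col1a1 at 11.9 FPKM. Relative to the median gene, the 8 macrophage markers ranged from -0.27 for Mertk to 1.28 for Fcgr1, with Spi1 at 1.22. In the order ECM1-sufficient and ECM1-deficient, 4 of 7 neutrophil markers summed to 11.5 and 18.5 FPKM, with Retnlg listed at 0 in the former. For 3 of 6 B cell markers the sums were 3.67 and 9.52 FPKM, and for 4 of 9 eosinophil and mast cell markers 1.80 and 3.97 FPKM, with Tpsb2 listed at 0 in the ECM1-sufficient library. Of the mesothelial and fibroblast markers 5 of 7 summed to 35.8 and 64.0 FPKM, of the monocyte markers 2 of 4 to 25.8 and 35.4 FPKM, and of the erythroid markers 4 of 5 to 3.02 and 2.02 FPKM. The 1 of 5 platelet markers with FPKM, Pf4, was at 26.01 and 43.9 FPKM, and the 1 of 4 endothelial markers, Kdr, at 0.870 and 1.17 FPKM. Of 6 markers of resident peritoneal macrophages 4 had FPKM, with sums of 30.2 and 67.3 FPKM and Icam2 listed at 0 in the ECM1-sufficient library. The 8 T and NK cell markers and the 5 dendritic cell markers were not analysed here. In such bulk RNA, fewer cells of a type and less RNA per cell cannot be told apart.

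Most of these receptor genes were higher where ECM1 was deficient, as most genes were. Of the 39 genes other than P2X channels, 34 were above zero difference. Among the 30 of them that were compared 27 were, and 90.5% of all 9032 genes compared were. The 39 genes summed to 161 FPKM with ECM1 sufficient and 304 FPKM with ECM1 deficient, a ratio of 1.89, where all compared genes together had a ratio of 1.37 and the median gene one of 1.73. Of the 30 that reached 1 FPKM in at least one library, 6 were called higher and 0 lower, where 14.8% of the compared genes were called higher and 2.17% lower. Their median difference was 0.73, and over all 39 genes it was 0.63. The 6 were Gpr176, Gpr39, Gpr146, S1pr1, Adgre1 and Adgre5. The pair of P2X channels had 0 calls in either direction.

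The count of 6 rests in part on the minimum of 1 FPKM. Among the 30 genes, 11 passed it through the ECM1-deficient library alone and 1 through the ECM1-sufficient library alone, so that these had to differ. The 11 held 3 of the 6 calls, Gpr176, Gpr39 and Gpr146. Among the 18 that reached 1 FPKM in each library 3 were called higher, 16.7%, and among all genes of that kind 14.8% were. When the shift was divided out, 2 of the 30 were called higher, Gpr176 and Gpr39, and 1 lower, Ptgir, where 2.45% of the compared genes were called higher and 4.77% lower. After both libraries were brought to equal sums 3 were higher, Gpr146 being added, and 1 lower, Ptgir, against 4.22% and 3.28% of the compared genes.

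**Figure D1:**
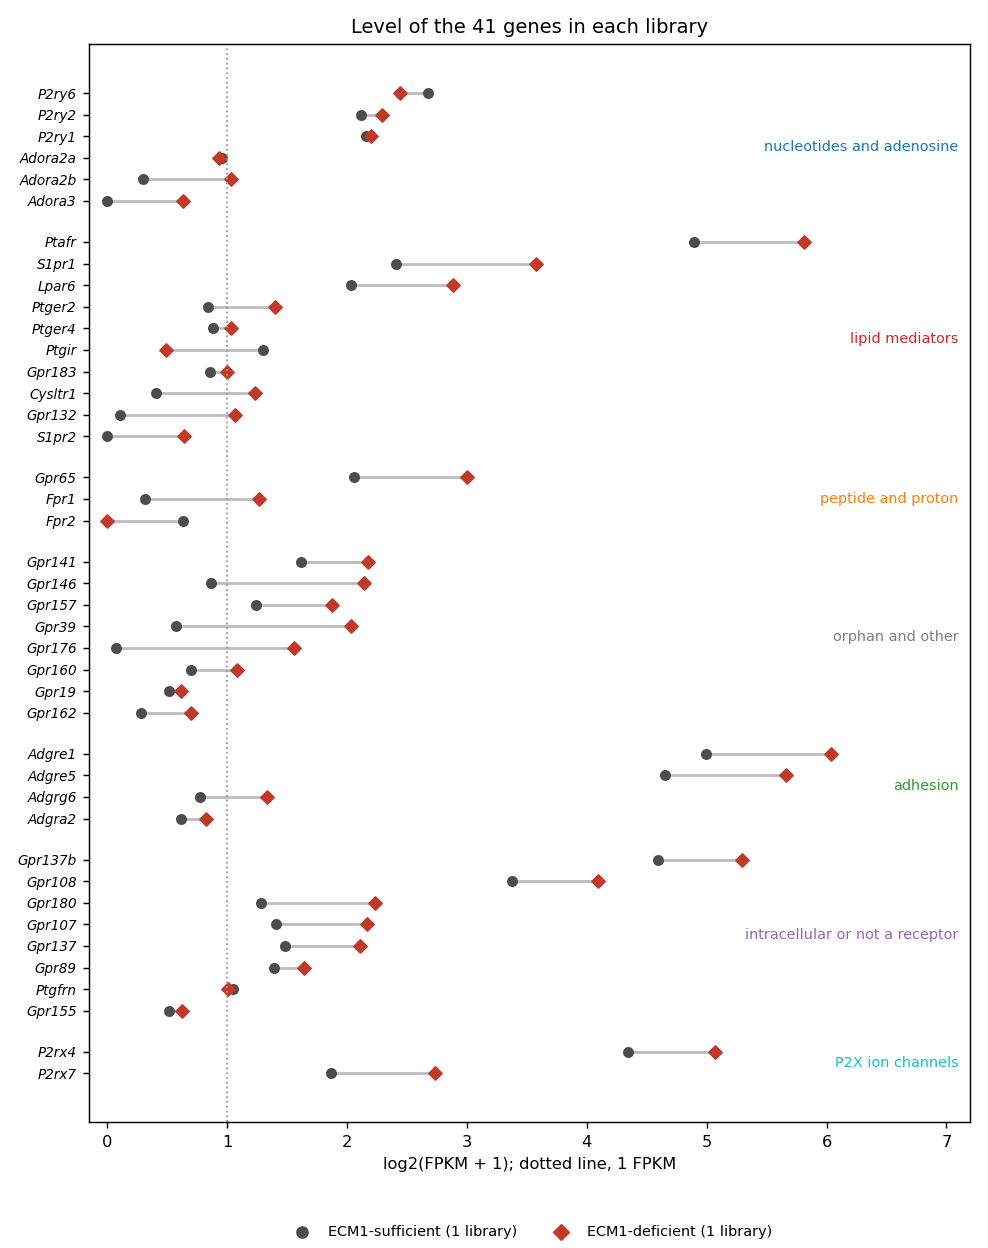
Level of each of the 41 genes as log2(FPKM + 1) on the horizontal axis, with the ECM1-sufficient library as grey circles and the ECM1-deficient library as red diamonds, 1 library each, grouped by role. Adgre1, Ptafr and Adgre5 lie farthest right in both libraries, and the P2Y receptors P2ry1, P2ry2 and P2ry6 have the 2 symbols close together.

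The order of levels was shared at the top. The 6 genes with the most FPKM were the same in both libraries, namely Adgre1, Ptafr, Adgre5, Gpr137b, P2rx4 and Gpr108, and they held 74.3% of the FPKM of all 41 with ECM1 sufficient and 74.8% with ECM1 deficient. At 5 FPKM or more there were 7 of the 41 genes in the ECM1-sufficient and 10 in the ECM1-deficient library. P2ry6 was ranked 7 with ECM1 sufficient and 11 with ECM1 deficient, behind S1pr1, Gpr65, Lpar6 and P2rx7, which had been below it. Without replicates, the order of neighbours in these lists has no error attached.

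Receptors for nucleotides were nearly level between the libraries, unlike the median gene. P2ry6, which binds UDP and drives the uptake of debris in microglia, lies on chromosome 7 from 100937630 to 100974649 and was at 5.38 FPKM in the ECM1-sufficient and 4.44 FPKM in the ECM1-deficient library, a difference of -0.23. P2ry2, the receptor for ATP and UTP through which phagocytes sense dying cells, was at 3.33 and 3.90 FPKM, a difference of 0.18. P2ry1, a receptor for ADP, was at 3.47 and 3.61 FPKM, a difference of 0.04. All 3 couple to Gq, and none passed 2-fold in either direction as deposited or relative to the median gene. Of the 9032 compared genes, 94.0% had a larger difference than P2ry6, 89.6% a larger one than P2ry1 and 85.7% a larger one than P2ry2. P2ry6, P2ry1 and P2ry2 were thus below the median gene, by -0.88, -0.57 and -0.44 on its scale. P2ry6 and P2ry2 are neighbours, 21.9 kb apart.

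Adenosine receptors were at or below about 1 FPKM. Adora2b, a receptor coupled to Gs that needs much adenosine, was at 0.228 FPKM in the ECM1-sufficient and 1.04 FPKM in the ECM1-deficient library, a difference of 0.73. Adora2a, also coupled to Gs and known to restrain macrophage cytokines, was level at 0.936 and 0.910 FPKM. Adora3, coupled to Gi, was listed at 0 and at 0.553 FPKM, and 779 bases of its exons are shared with Tmigd3 on the same strand, so its level is uncertain. Over the 6 nucleotide and adenosine receptors the sum was 13.3 FPKM in the ECM1-sufficient and 14.4 FPKM in the ECM1-deficient library, a ratio of 1.08.

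The ATP-gated channels differed from zero by about as much as the median gene. P2rx4, found on the surface and in lysosomes of macrophages, was at 19.3 FPKM with ECM1 sufficient and 32.6 FPKM with ECM1 deficient, 1.69-fold. P2rx7, the channel through which extracellular ATP triggers the NLRP3 inflammasome, was at 2.64 and 5.65 FPKM, 2.14-fold, with a difference of 0.87 that stayed below the call. On the scale of the median gene they were at -0.03 and 0.25. The genes are neighbours on chromosome 5, 16.1 kb apart.

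Enzymes and transporters that set the supply of extracellular nucleotides and adenosine were mostly within 2-fold of FPKM + 1. Of 15 listed genes 9 were compared, 2 of them higher and 0 lower, with a median of 0.71, where 14.8% of all compared genes were higher and 2.17% lower. The higher ones were Enpp3, an ectoenzyme that splits nucleotides, at 0.273 and 1.91 FPKM, and Entpd5, a nucleoside diphosphatase of the endoplasmic reticulum, at 1.26 and 3.90 FPKM. Entpd1, the ectonucleotidase CD39, was at 6.40 and 11.1 FPKM. None of the 9 was called relative to the median gene, where 2.45% of all compared genes were higher and 4.77% lower.

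Receptors for lipid mediators were spread from a difference of -0.81 for Ptgir to 1.17 for S1pr1. Ptafr, the receptor for platelet-activating factor, lies on chromosome 4 from 132564067 to 132582683 and was the most abundant of them, at 28.8 FPKM in the ECM1-sufficient and 55.2 FPKM in the ECM1-deficient library. That was 1.92-fold, a difference of 0.92, just below the call, and 0.15 relative to the median gene. S1pr1, the receptor coupled to Gi that guides cells along sphingosine-1-phosphate, lies on chromosome 3 from 115710433 to 115715072 and was at 4.31 and 10.96 FPKM, 2.54-fold higher, or 0.49 relative to the median gene. S1pr1 is also a gene of lymphocytes, whose B cell markers moved in the same direction as given above, and their part in this value was not tested. S1pr2, which can couple to G13, was listed at 0 with ECM1 sufficient and at 0.556 FPKM with ECM1 deficient. A value of 0 may be a failed estimate in such a table, where 45 genes were at 0 in one library and at 5 FPKM or more in the other. Lpar6, a lysophosphatidic acid receptor with 1 exon that lies inside the retinoblastoma gene Rb1 on the opposite strand, was at 3.10 and 6.37 FPKM, 2.06-fold, and Rb1 itself was at 2.05 and 2.41 FPKM. Among the 198 compared genes with 1 exon, 24.2% were called higher and 23.2% lower, and among the 4325 genes with 10 or more exons 13.7% and 0.231%.

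The promoter sequences of 3 receptors are shown as examples chosen after their values were seen, Ptafr with a difference of 0.92, Gpr65 with 0.95 and P2ry1, level between the libraries, with 0.04. Each is the run of 250 bases before the RefSeq start of the gene on build GRCm38.p6, written 5′ to 3′ on the gene's strand. They are Ptafr at chr4:132563817-132564066 on the plus strand, Gpr65 at chr12:98268385-98268634 on the plus strand and P2ry1 at chr3:61002535-61002784 on the plus strand. Capitals mark GAGGAA on either strand, the core bound by the macrophage factor PU.1, here read as TTCCTC, and the P2ry1 window does not hold these letters.
Ptafr: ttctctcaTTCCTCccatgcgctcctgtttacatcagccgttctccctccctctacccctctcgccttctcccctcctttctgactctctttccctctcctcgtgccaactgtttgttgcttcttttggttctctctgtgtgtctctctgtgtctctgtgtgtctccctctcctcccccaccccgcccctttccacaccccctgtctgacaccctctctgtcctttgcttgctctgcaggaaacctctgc
Gpr65: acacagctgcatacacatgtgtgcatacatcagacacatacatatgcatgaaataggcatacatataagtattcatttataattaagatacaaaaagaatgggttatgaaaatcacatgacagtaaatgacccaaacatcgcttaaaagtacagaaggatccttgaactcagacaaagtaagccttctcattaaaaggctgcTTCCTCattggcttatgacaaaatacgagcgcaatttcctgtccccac
P2ry1: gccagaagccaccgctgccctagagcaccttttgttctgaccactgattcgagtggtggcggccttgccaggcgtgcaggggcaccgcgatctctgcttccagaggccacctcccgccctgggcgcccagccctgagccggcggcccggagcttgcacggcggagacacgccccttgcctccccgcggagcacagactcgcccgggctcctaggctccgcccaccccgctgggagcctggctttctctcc
On either strand, the PU.1 core was found in 23.4% of 32536 distinct promoter windows of this length and in 9 of the 42 distinct windows of the 32 genes with a RefSeq entry, 21.4%. The 9 windows belong to Adora3, Fpr2, Gpr108, Gpr137, Gpr146, Gpr19, Gpr65, Ptafr and Ptgir, and so include Ptgir and Fpr2, the genes with the lowest differences of the set. The cyclic AMP response element TGACGTCA was in 1.56% of all windows and in 1 of the 42, that of S1pr2. The AP-1 motif TGANTCA was in 6.73% of all windows and in 3 of the 42, those of Adora3, Gpr39 and P2rx7. A match to letters is a description and not a binding site.

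The prostacyclin receptor was the lowest of the 30 compared genes. Ptgir, coupled to Gs and known from platelets and vessel walls, lies on chromosome 7 from 16906490 to 16910905 and was at 1.46 FPKM in the ECM1-sufficient and 0.400 FPKM in the ECM1-deficient library. That was 3.66-fold lower, a difference of -0.81 that stays within 2-fold of FPKM + 1, and 97.4% of the compared genes had a larger difference. It was called lower relative to the median gene, at -1.16, and it was the 1 gene of the 30 that passed the minimum through the ECM1-sufficient library alone. Ptgis, which makes its ligand, was at 2.89 and 6.28 FPKM, a difference of 0.90. Relative to the median gene it was at 0.27, and it was not called on either scale.

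The prostaglandin E2 receptors, of the same Gs class, were both near 1 FPKM. Ptger2 was at 0.791 FPKM in the ECM1-sufficient and 1.64 FPKM in the ECM1-deficient library, and Ptger4 was at 0.843 and 1.04 FPKM. Measured against the median gene, Ptger2 was at 0.14 and Ptger4 at -0.23. Part of the exons of Ptger4, 82 bases, lies opposite those of Ttc33, which was at 7.81 and 9.84 FPKM. Among the other lipid receptors, Cysltr1 for cysteinyl leukotrienes was at 0.322 and 1.35 FPKM, Gpr132, a receptor of immune cells for oxidised fatty acids, at 0.0755 and 1.10 FPKM, and the oxysterol receptor Gpr183 at 0.811 and 0.999 FPKM. Ptgfrn matched the symbol rule of the prostanoid receptors, but encodes a protein of the immunoglobulin superfamily that associates with tetraspanins, and was at 1.07 and 1.01 FPKM.

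Genes listed for the synthesis and breakdown of eicosanoids and related lipids ranged from 0.751 to 62.6 FPKM with ECM1 sufficient, and 12 of 13 had differences above zero. Of 18 listed genes these 13 were compared, with a median of 0.81. Relative to the median gene 0 were called, where 2.45% of all compared genes were higher and 4.77% lower. As deposited 1 was higher and 0 lower, where 14.8% of all compared genes were higher and 2.17% lower. The higher one was Ptgs1, the constitutive cyclooxygenase, at 2.69 and 7.24 FPKM, 2.69-fold. Ptgs2, the inducible cyclooxygenase, was at 1.25 and 0.771 FPKM, a difference of -0.34 and the only one of the 13 below zero. Alox5ap, the activating protein of leukotriene synthesis, was at 40.8 and 72.1 FPKM, and Pla2g7, which breaks down platelet-activating factor, at 62.6 and 118 FPKM. The authors' deposited table of gene ontology terms lists prostaglandin metabolic process with 14 of 28 genes, 2.36-fold enrichment and a false discovery rate of 0.00211. The same deposited table of the authors gives prostaglandin biosynthetic process 2.05-fold with a rate of 0.0308, and leukotriene metabolic process 1.99-fold with a rate of 0.0674. The 4183 genes of that deposited table with FPKM here all had differences above zero, the lowest being 0.59, so it describes genes higher in the ECM1-deficient library. That lowest difference lies at about 1.5-fold of FPKM + 1, a lower threshold than the 2-fold of the calls here. At 1.5-fold, 53.7% of all compared genes were higher.

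Genes for lysolipid and sphingolipid handling held 1 gene apart from the rest. Of 17 listed symbols 11 were compared, and the median was 0.84. Among them 1 was higher, Lpcat1, at 2.19 and 5.55 FPKM, and 0 lower, where 14.8% of all compared genes were higher and 2.17% lower. Lpcat1 rebuilds phospholipids from lysophospholipids. Sgpp1, which removes the phosphate of sphingosine-1-phosphate inside the cell, was at 7.35 FPKM in the ECM1-sufficient and 3.60 FPKM in the ECM1-deficient library, a difference of -0.86, and was called lower relative to the median gene, at -1.51. On that scale 4.77% of all compared genes were called lower. Sgpl1, the lyase of the same lipid, was at 31.3 and 57.0 FPKM, and Sphk2, a kinase that makes it, at 2.22 and 4.81 FPKM.

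**Figure D2:**
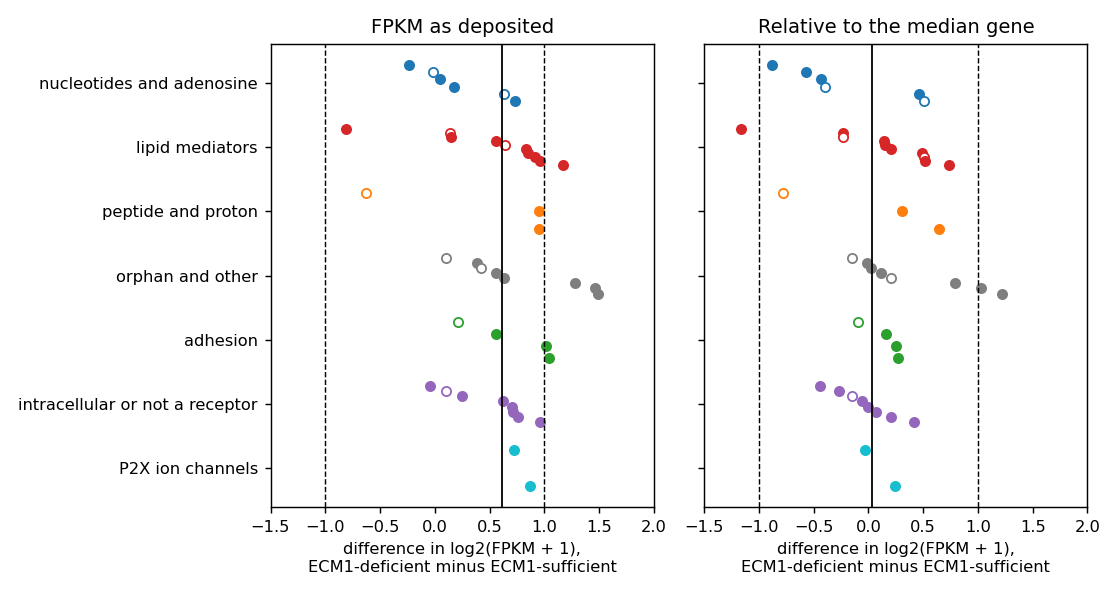
Difference in log2(FPKM + 1), ECM1-deficient minus ECM1-sufficient, of each of the 41 genes by role, with FPKM as deposited on the left and relative to the median gene on the right. Filled points reached 1 FPKM in at least one library, open points did not, the solid line is the median of all 9032 genes compared and the dashed lines mark 2-fold. The P2Y receptors lie left of the solid line in both panels, and Gpr176 and Gpr39 lie beyond the right dashed line in both.

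The formyl peptide receptors pointed in opposite directions at low level. Fpr1, which guides phagocytes to bacteria, was at 0.244 FPKM in the ECM1-sufficient and 1.40 FPKM in the ECM1-deficient library, a difference of 0.95. Fpr2, which also binds annexin A1, was at 0.550 FPKM in the former and listed at 0 in the latter. The genes are 3.88 kb apart on chromosome 17 and belong to a family of similar sequences, and Fpr2 shares 48 bases of exon with Fpr3 on the same strand, so reads may have been split between them. The neutrophil markers, from cells rich in Fpr1, had a sum that was 1.62-fold in the ECM1-deficient library. All compared genes together had a ratio of 1.37 and the median gene one of 1.73. The part of neutrophils in the Fpr1 value was not tested. Among these markers Csf3r, Mmp8 and Retnlg had differences of 1.06, 0.86 and 0.85, with Retnlg listed at 0 in the ECM1-sufficient library. S100a8 stood the other way, at 4.98 and 3.69 FPKM, a difference of -0.35. Anxa1, the annexin ligand, was at 190 and 317 FPKM, 1.67-fold.

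Gpr65 senses protons and raises cyclic AMP through Gs in acid surroundings. It was at 3.16 FPKM with ECM1 sufficient and 7.02 FPKM with ECM1 deficient, 2.23-fold, with a difference of 0.95 that stayed below the call and was 0.30 relative to the median gene. An annotated antisense gene, Gm47566, lies opposite 511 bases of its exons and was not analysed here.

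Of 6 compared receptors with no settled or no organic ligand, 3 were called higher, where 14.8% of all compared genes were. These shares are not alike, because all 3 passed the minimum through the ECM1-deficient library alone and so had to differ. Gpr141 and Gpr157, which reached 1 FPKM in each library, were not called. Gpr176, an orphan receptor known to set the pace of the circadian clock in the mouse brain, lies on chromosome 2 from 118277110 to 118373419 and was at 0.0494 FPKM in the ECM1-sufficient and 1.95 FPKM in the ECM1-deficient library, a difference of 1.49. Gpr39, a receptor that responds to zinc, lies on chromosome 1 from 125676995 to 125873862 and was at 0.487 and 3.09 FPKM, 6.35-fold higher. The exons of Gpr39 overlap those of Lypd1 on the opposite strand over 1202 bases, and Lypd1 was not analysed here. Gpr146, a receptor linked to blood cholesterol, was at 0.821 and 3.42 FPKM, 4.17-fold higher. With the shift divided out, Gpr176 was at 1.22, Gpr39 at 1.03 and Gpr146 at 0.80, so that Gpr146 was no longer called. Each of these 3 was below 1 FPKM in the ECM1-sufficient library.

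Other orphan receptors were within 2-fold of FPKM + 1. Gpr141 was at 2.06 FPKM in the ECM1-sufficient and 3.52 FPKM in the ECM1-deficient library, Gpr157 at 1.37 and 2.67 FPKM, and Gpr160 at 0.620 and 1.12 FPKM. Gpr162, at 0.213 and 0.623 FPKM and so 2.93-fold by the plain ratio, and Gpr19, at 0.427 and 0.531 FPKM, were below the minimum in both. After division by the median ratio these 5 were between -0.15 for Gpr19 and 0.20 for Gpr162.

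Adhesion receptors carry a long extracellular part that binds other cells or matrix, and a pair of them was among the most abundant of the whole set. Adgre1 encodes the F4/80 antigen that defines mouse macrophages. It lies on chromosome 17 from 57358686 to 57483529, has 23 exons, and was at 31.0 FPKM with ECM1 sufficient and 64.7 FPKM with ECM1 deficient, 2.09-fold higher with a difference of 1.04. Adgre5, which encodes CD97, a receptor for CD55, lies on chromosome 8 from 83723251 to 83741326 and was at 24.1 and 49.6 FPKM, 2.06-fold higher with a difference of 1.01. Both were just past the call, and relative to the median gene they were at 0.27 and 0.25 and within 2-fold. The exons of Adgre5 overlap those of Ddx39 on the opposite strand over 895 bases, and Ddx39 was at 2.06 and 3.90 FPKM. Adgrg6, known from the myelination of nerves, was at 0.710 and 1.52 FPKM, and Adgra2, known from brain vessels, at 0.532 and 0.769 FPKM.

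**Figure D3:**
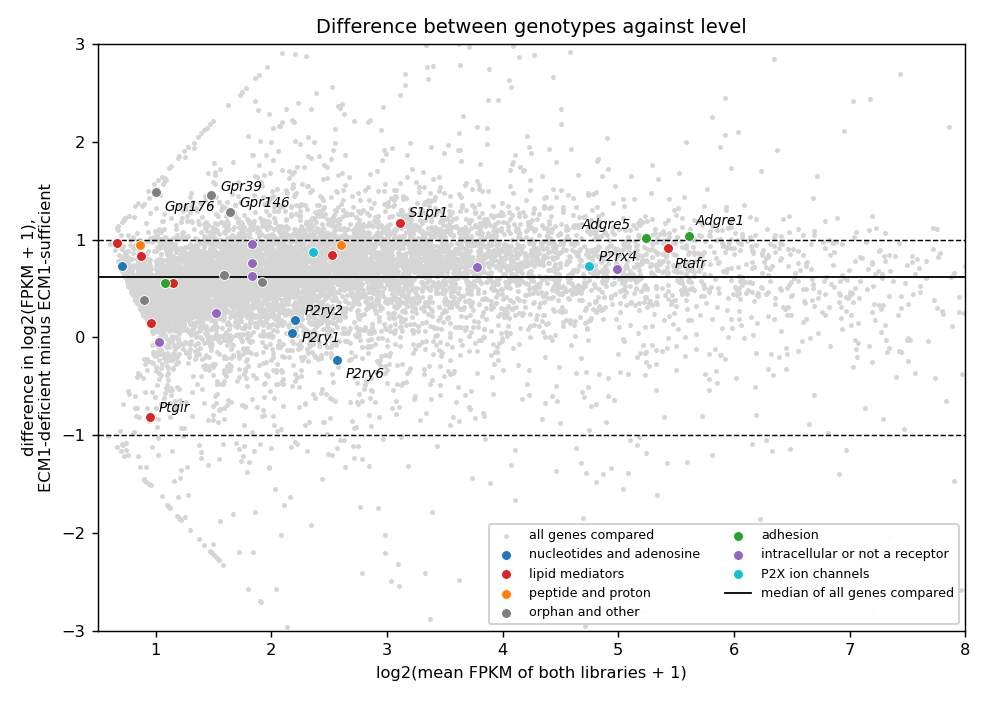
Difference in log2(FPKM + 1), ECM1-deficient minus ECM1-sufficient, against log2 of the mean FPKM of both libraries + 1, for the 9032 genes compared in grey and the 32 compared genes of the set in colour by role, with 142 genes outside the plotted range. The solid line is the median difference of 0.61 and the dashed lines mark 2-fold. The called genes Gpr176, Gpr39 and Gpr146 lie at low level, and Adgre1 and Adgre5 at high level just above the dashed line.

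Genes named Gpr whose products sit inside the cell ranged from a difference of 0.10 for Gpr155 to 0.96 for Gpr180. Gpr137b, a lysosomal protein that acts on mTORC1, was at 23.2 FPKM in the ECM1-sufficient and 38.3 FPKM in the ECM1-deficient library, and its relative Gpr137 at 1.80 and 3.32 FPKM. Gpr108, a Golgi protein, was at 9.37 and 16.1 FPKM, and Gpr107, of the same family, at 1.65 and 3.48 FPKM. Gpr180 was at 1.43 and 3.71 FPKM, Gpr89, the Golgi pH regulator, at 1.63 and 2.11 FPKM, and Gpr155, a cholesterol sensor of lysosomes, at 0.432 and 0.540 FPKM. With Ptgfrn these 8 genes had a median difference of 0.66, or -0.03 relative to the median gene. Of the 7 that were compared 0 were called either way, where 14.8% of all compared genes were higher and 2.17% lower. The exons of Gpr137 overlap those of Bad on the opposite strand over 524 bases, and Bad was at 10.7 and 13.7 FPKM.

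The G proteins that these receptors use included the widest difference near the set. Gna13, the alpha subunit of G13, was at 15.9 FPKM with ECM1 sufficient and 2.18 FPKM with ECM1 deficient, 7.30-fold lower, a difference of -2.41. It was called lower relative to the median gene too, at -3.04, and has 4 exons. Gna12, the related subunit, was at 3.46 and 10.6 FPKM, 3.07-fold higher. Of 21 listed G protein genes 16 were compared, with 6 higher, 1 lower and a median of 0.92, where 14.8% of all compared genes were higher and 2.17% lower. After division by the median ratio 0 were higher and 1 lower, where 2.45% of all compared genes were higher and 4.77% lower. Gng2 was at 8.97 and 22.8 FPKM and Gnb5 at 0.403 and 2.55 FPKM. Gnai2, the main Gi subunit of leukocytes, was at 16.5 and 35.9 FPKM, Gnas for Gs at 10.01 and 17.6 FPKM, and Gnaq for Gq at 6.05 and 8.97 FPKM.

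Genes that switch receptors off were mixed. Of 9 listed kinases and arrestins 6 were compared, 2 higher and 0 lower, where 14.8% of all compared genes were higher and 2.17% lower. The higher ones were Adrbk1, the kinase that phosphorylates active receptors, at 4.11 and 13.9 FPKM, 3.37-fold, and Arrb2, an arrestin, at 5.63 and 12.4 FPKM, 2.21-fold. The other arrestin, Arrb1, was at 2.45 and 1.48 FPKM, a difference of -0.48, and -0.99 relative to the median gene. Of 6 compared RGS genes, whose products turn off G protein alpha subunits, 1 was higher and 0 lower, against the same shares. The higher one was Rgs2, at 8.94 and 19.3 FPKM. Rgs1 was at 21.04 and 27.7 FPKM, and Rgs10 at 36.2 and 47.8 FPKM. In both lists 0 genes were called relative to the median gene, where 2.45% of all compared genes were higher and 4.77% lower.

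Downstream of Gs and Gq the genes were within 2-fold of FPKM + 1, although some passed it by the plain ratio, among them the cyclic AMP responsive factor Crem at 3.48-fold, the phosphodiesterase Pde2a at 2.77-fold, Prkar2a at 2.29-fold and Adcy7 at 2.19-fold. Of 25 listed genes of cyclic AMP synthesis, breakdown and response 12 were compared, with 0 called either way and a median of 0.65. Prkar1a, a regulatory subunit of protein kinase A, was at 49.7 and 92.0 FPKM, and Prkaca, a catalytic subunit, at 5.18 and 9.94 FPKM. Of 7 listed genes of phospholipase C and calcium release 4 were compared, with 0 called and a median of 0.49, among them Plcb2 at 1.65 and 2.83 FPKM and Plcb3 at 1.91 and 3.82 FPKM. Over all 78 compared genes of these lists 13 were higher and 1 lower, 16.7% and 1.28%, and 74, or 94.9%, were above zero, close to the 14.8%, 2.17% and 90.5% of all compared genes. After division by the median ratio 0 were higher and 2 lower, Gna13 and Sgpp1, where 2.45% of all compared genes were higher and 4.77% lower.

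**Figure D4:**
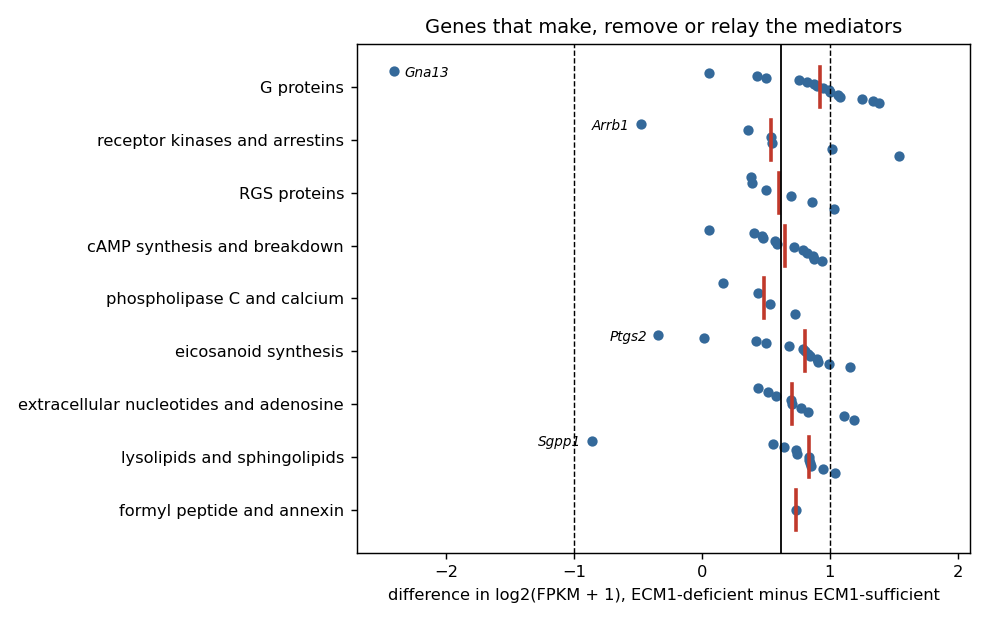
Difference in log2(FPKM + 1), ECM1-deficient minus ECM1-sufficient, of the 78 compared genes that make, remove or relay the mediators, by list. Red bars are the list medians, the solid line is the median of all genes compared and the dashed lines mark 2-fold. Gna13 at -2.41 lies alone left of the lower dashed line.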

How the data were processed

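RNA of 1 ECM1-sufficient and 1 ECM1-deficient sample of peritoneal macrophages was measured. Per the labels' protocol, RNA was enriched with oligo(dT) beads and libraries were strand-specific. The submitters' processing notes name HISAT2, StringTie 1.2.3 and the build mm9. Set beside GENCODE M21, an annotation of GRCm38, the deposited coordinates matched: of 10403 identifiers 10384 were annotated and 8060 had identical ends, so positions are given as GRCm38. Linear FPKM per gene were deposited, and the lowest of the higher values of a gene was 0.500, so weaker genes had been left out. The deposited table also holds log2(FPKM + 1), a log2 fold change, its linear fold, and p-values that are all 1. The authors' gene ontology table gives a fold ratio and p-values of terms per the file headers. Whether strand was used in quantification is not given in the sources used here.

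From linear FPKM, log2 differences were computed with Python 3.11.15, pandas 2.3.3 and NumPy 2.4.6, with 1 added and a minimum of 1 FPKM in at least one library. For values relative to the median gene, FPKM were divided or multiplied by the square root of the median ratio. The calculation was tested on simulated data. Of the genes matching the rule 1 is not reported here and enters no count of the set. Every other gene of the set is named, with up to 4 called genes of each further list, or the 2 most expressed, and other genes as examples chosen after their values were seen. The genes of the set and the lists were chosen with earlier results of these data known. Exons and overlaps came from GENCODE M21. Alternatives were other pseudocounts, minima, scalings and thresholds, and exon-rich genes.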

Additional observations from a re-analysis of the deposited data

How the results depend on the processing

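The 6 higher and 0 lower receptor genes, their median of 0.73, the 0 calls of P2X channels, and the 13 higher and 1 lower genes of the further lists were recomputed under the alternatives, the medians not under other thresholds and the P2X channels and further lists not for cell-surface receptors alone. With a pseudocount of 0.1 there were 14 higher and 1 lower of 30 receptor genes, against 32.6% and 2.90% of all genes, a median of 0.98, 1 higher P2X channel, P2rx7, and 29 higher and 2 lower further genes. With a pseudocount of 5 there were 0 higher receptor genes, against 3.17% of all genes, a median of 0.28 and 1 higher further gene. At a minimum of 5 FPKM, 3 of 9 receptor genes were higher, against 22.35% of all genes, with a median of 0.92. Division by the median ratio gave 2 higher and 1 lower with a median of 0.15, and 0 higher and 2 lower further genes. Equal sums gave 3 higher and 1 lower with a median of 0.39, and 2 higher and 2 lower further genes. At 1.5-fold, 19 of 30 receptor genes were higher and 1 lower, against 53.7% and 3.68% of all genes, 2 P2X channels were higher, and 50 further genes were higher and 2 lower. At 4-fold, 0 receptor genes and 0 further genes were higher, against 1.21% of all genes. With 3 or more exons, 3 of 20 receptor genes were higher, against 14.6% of all genes, and the median was 0.63. Among alternatives chosen after seeing the data, 1 FPKM in both libraries left 3 higher genes of 18, and cell-surface receptors alone had a median of 0.83. The sign of a called receptor gene could not change under these alternatives, since its fold exceeded every ratio divided out.

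Other counts stayed within 1.5 times and other medians within 0.1 of those given. The median ratio, pseudocounts and thresholds enter these numbers by construction. The number of all genes called higher and lower was 1337 and 196 as deposited, 221 and 431 relative to the median gene, and 381 and 296 at equal sums. No paired analysis was possible because each genotype has 1 library. Depth is unknown, so no counting error can be given, and values near or below 1 FPKM are the least certain.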
